A study of Danio rerio with 8 samples.

Results

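FOXO transcription factors are forkhead proteins that stand at the end of insulin and PI3K signalling. The kinase AKT phosphorylates them, and the phosphorylated proteins are bound by 14-3-3 proteins and kept in the cytoplasm; when AKT is quiet they enter the nucleus and switch on genes of cell-cycle arrest, cell death, antioxidant defence, gluconeogenesis and autophagy. They are also known for roles in vessel and blood cells. This control acts on the protein, so a transcript level does not report how much FOXO protein is in the nucleus. Zebrafish carry duplicate copies of several of these genes, written with a final a or b.

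The family was taken as the rows of the gene count table whose symbol is foxo1, foxo3, foxo4 or foxo6 with an optional a or b. Of 7 such zebrafish genes, 4 were rows among the 14781 of the table: foxo1a, foxo1b, foxo3a and foxo3b. Foxo4, foxo6a and foxo6b were not analysed here under those symbols. All 4 rows passed the low-count filter, and their values carry the report. The deposited table names genes by symbol alone, and coordinates are not given because the annotation at hand is of another assembly than the authors'.

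The libraries came from tumour cells of transgenic zebrafish (Danio rerio), sorted by fluorescence before RNA-seq. The MYCN group was 4 libraries of EGFP-positive neuroblastoma cells from MYCN transgenic fish, and the myrAKT group was 4 libraries of mCherry-positive ganglioneuroma cells from myrAKT transgenic fish, where myrAKT is a membrane-anchored, constantly active form of the kinase. Both tumours arise in the sympathetic lineage, and ganglioneuroma is the more differentiated. The labels give no age, no further allele, no promoter for either transgene and no number of fish per library, and no untransformed sympathetic cells were analysed. Oncogene, tumour type and sorting colour go together and cannot be told apart, and p-values measure the spread between these libraries, which may be technical.

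Total read counts ran from 36984845 to 55827123 in the MYCN libraries, against 25948623 to 43083220 in myrAKT. Sympathoadrenal markers were present in all 8 libraries, with a summed level of 9367 to 11232 CPM (counts scaled to a common library size) in MYCN and 1996 to 4459 CPM in myrAKT, and 11 of 13 tested were lower in myrAKT. Markers counted as higher or lower are calls (edgeR quasi-likelihood test, adjusted p under 0.05). Of all 12126 tested genes 37.6% were called higher and 38.4% lower in myrAKT. Most markers of endothelial, blood, kidney, stromal and glial cells went the other way, whereas of 10 tested muscle genes 2 were higher and 3 lower (9.12 to 14.2 and 8.39 to 15.05 CPM). All 11 endothelial genes were higher in myrAKT (summed level 15.2 to 30.7 CPM in MYCN and 440.3 to 654 CPM in myrAKT), as were all 9 myeloid genes (341 to 1081 and 15003 to 18843 CPM) and all 8 kidney tubule genes (7.56 to 23.9 and 1135 to 4180 CPM). Of 9 lymphocyte genes 8 were higher (34.1 to 52.1 and 387 to 605 CPM), of 10 tested erythroid genes 9 (190.4 to 325 and 4446 to 10752 CPM), and of 8 tested stromal genes 7 (14.8 to 29.5 and 448 to 584 CPM). Of 7 tested glial genes 5 were higher and 1 lower (26.0 to 42.1 and 92.5 to 107.9 CPM). Pax5 of the lymphocyte list and erbb3b of the glial list had no read in any MYCN library, and pdgfrb of the stromal and ba1 of the erythroid list had none in any of the 8 libraries. Pax5 passed the filter through myrAKT, where it is high, so its call was nearly set by the filter. The lymphocyte count, which includes it, is only a description. Throughout, CPM is scaled with TMM (trimmed mean of M-values) factors, which correct for differences in RNA make-up between libraries. CPM is not divided by gene length, so it is compared between libraries and not between genes.

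Setting the myrAKT libraries against MYCN shows whether FOXO genes, and the genes around them, differ between tumours driven by active AKT and by MYCN. Transcripts of both foxo1 genes were many-fold higher in the myrAKT libraries, foxo3b was moderately higher, and foxo3a did not pass the test. The 3 calls are to be read against a comparison in which 76.0% of the 12126 tested genes passed (edgeR quasi-likelihood test, adjusted p under 0.05), 37.6% higher and 38.4% lower in myrAKT, and in which the libraries of both groups did not overlap for 72.5% of tested genes, 36.2% with myrAKT above and 36.3% with it below. A call alone is therefore common here, and the size of a change says more: 5.97% of tested genes had a higher log2 fold change than foxo1a, 11.9% a higher one than foxo1b, 33.7% than foxo3b and 57.5% than foxo3a.

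**Figure D1:**
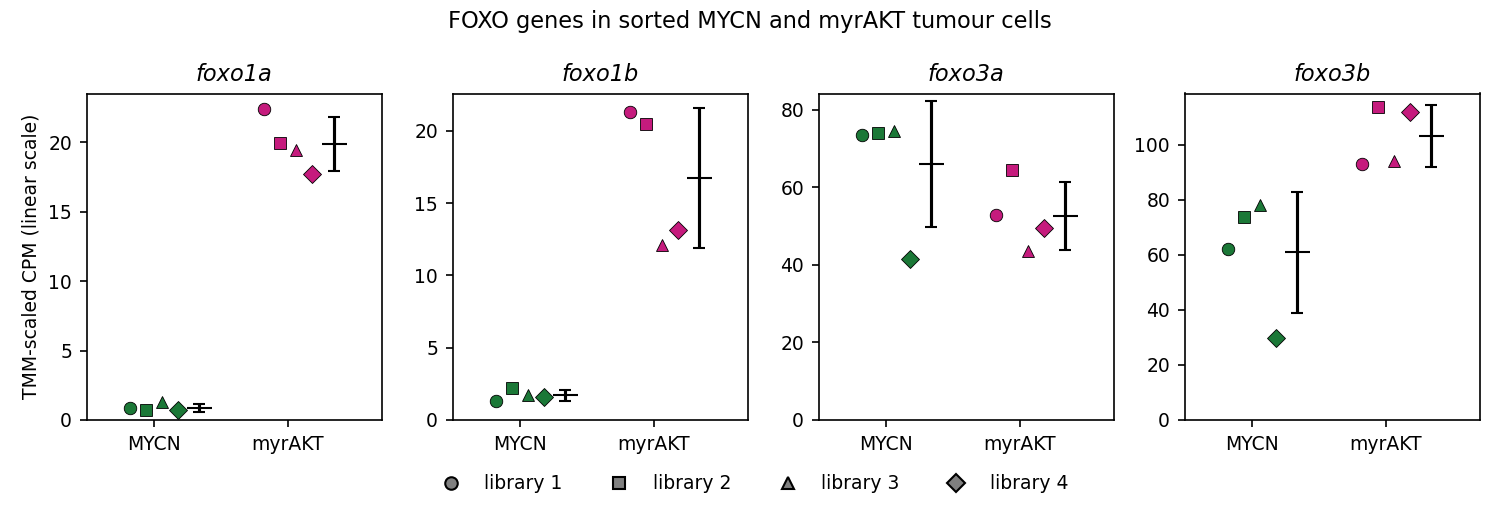
TMM-scaled CPM (linear axis from 0) of foxo1a, foxo1b, foxo3a and foxo3b in 4 MYCN (green) and 4 myrAKT (magenta) libraries, with the mean and SD beside each group. The marker shape is the library number, which was not used to pair libraries across groups. The groups are apart for foxo1a, foxo1b and foxo3b, and MYCN 4 lies below the other MYCN libraries for both foxo3 genes.

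Foxo1a encodes a copy of FOXO1, the member best known for control of gluconeogenesis and for its roles in endothelium and lymphocytes. Its level was 0.848, 0.687, 1.31 and 0.720 CPM in MYCN 1 to 4 and 22.4, 19.9, 19.4 and 17.7 CPM in myrAKT 1 to 4. Each myrAKT library stood far above each MYCN library, and the values lay closer together in myrAKT than in MYCN, relative to their mean. The means were 0.890 ± 0.286 CPM (SD, n = 4) in MYCN and 19.9 ± 1.95 CPM in myrAKT, a 22.1-fold difference (95% interval 15.6 to 31.3; log2 fold change 4.47, SE 0.22, adjusted p = 1.8e-07 by edgeR). The MYCN values rest on 23 to 53 reads per library. For the lowest of them the exact Poisson interval is 14.6 to 34.5 reads, which covers counting error only.

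Foxo1b, the other copy of FOXO1, moved in the same direction by less. It was at 1.34, 2.21, 1.75 and 1.56 CPM in MYCN 1 to 4 and at 21.3, 20.5, 12.1 and 13.1 CPM in myrAKT 1 to 4. The groups did not overlap, and among the myrAKT libraries 1 and 2 were high and 3 and 4 lower. The means were 1.72 ± 0.369 and 16.8 ± 4.83 CPM (SD, n = 4), a 9.84-fold difference (95% interval 6.48 to 14.9) or 3.30 on the log2 scale with an SE of 0.27 (edgeR, adjusted p = 3.0e-06). Both foxo1 genes kept direction and call in each of the 16 other fits made. In the same libraries the endothelial markers had a median log2 fold change of 4.84, the myeloid markers 4.77 and the lymphocyte markers 5.48; their part in the foxo1 values was not tested. In bulk RNA, more cells of a type and more RNA per cell cannot be told apart.

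Foxo3b is a copy of FOXO3, the member most tied to stress resistance and cell death. It stood at 62.3, 73.9, 78.2 and 29.6 CPM in MYCN 1 to 4 and at 93.0, 113.8, 94.3 and 112.1 CPM in myrAKT 1 to 4. All myrAKT libraries were above all MYCN libraries, and MYCN 4 was the lowest by a wide margin. The means of 61.0 ± 22.0 and 103.3 ± 11.2 CPM (SD, n = 4) gave a 1.69-fold difference (95% interval 1.12 to 2.55) or 0.76 on the log2 scale with an SE of 0.26 (edgeR, adjusted p = 0.024). The call ended without myrAKT 2 (adjusted p = 0.056) or myrAKT 4 (adjusted p = 0.054), and over the 16 other fits the adjusted p went from 4.0e-08 to 0.056. Without MYCN 4 the difference was smaller and the call firmer, at 0.52 on the log2 scale (adjusted p = 0.0034).

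Foxo3a, the second copy of FOXO3, was at 73.5, 74.0, 74.5 and 41.5 CPM in MYCN 1 to 4 and at 52.9, 64.4, 43.6 and 49.4 CPM in myrAKT 1 to 4. MYCN 1 to 3 were almost equal and above all myrAKT libraries, whereas MYCN 4 was below all of them. The means of 65.9 ± 16.2 and 52.6 ± 8.78 CPM (SD, n = 4) differed by -0.32 on the log2 scale, SE 0.21 (edgeR, adjusted p = 0.174). The 95% interval of the fold, myrAKT over MYCN, was 0.580 to 1.099, so the data leave room for a fall by a sizeable fraction and for a small rise. MYCN 4 decided this result: without it foxo3a fell by 0.50 on the log2 scale (adjusted p = 0.0063). The sign of foxo3a also depended on the scaling, at 0.02 when libraries were scaled by their totals alone (edgeR adjusted p = 0.943) and at 1.18 (adjusted p = 0.0013) when the summed counts of dbh and th, 2 enzymes of noradrenaline synthesis, set the scale. With library totals 5507 of the 12126 tested genes were higher and 3348 lower, and on the dbh and th scaling 8319 and 1026. Later counts of listed genes on these scalings are to be read against those. The same scalings moved the median of all tested genes from -0.04 to 0.34 and 1.45. Relative to that median foxo3a was at -0.28 with TMM factors, -0.32 with library totals and -0.27 on the dbh and th scaling, as the plot of the 4 genes under each setting shows. Such values are alike by construction, as the subtraction removes a shift shared by all genes.

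**Figure D2:**
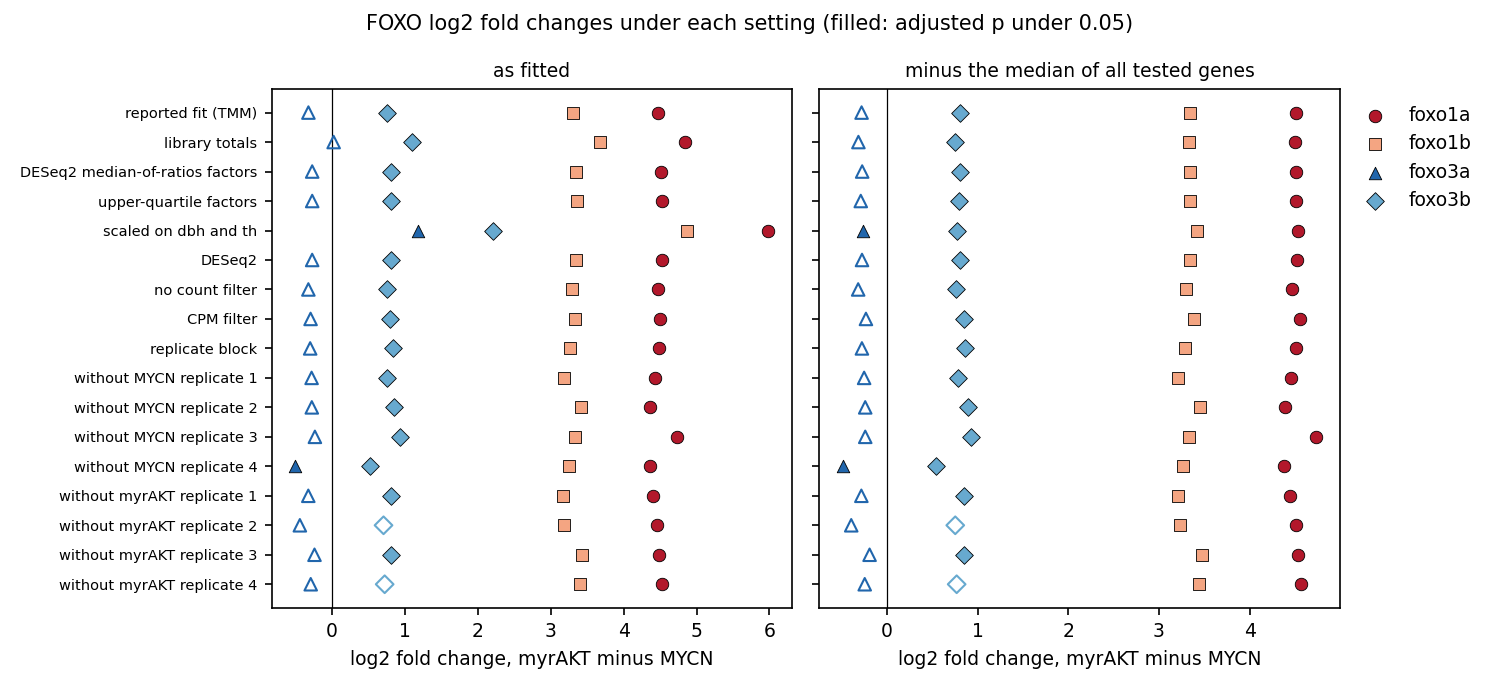
Log2 fold change (myrAKT minus MYCN) of the 4 FOXO genes in the reported fit and 16 other fits, as fitted (left) and after subtracting the median of all tested genes (right); filled markers have adjusted p under 0.05 and open ones do not. Foxo1a and foxo1b stay far to the right in every fit, foxo3b stays above 0, and foxo3a crosses 0 on the left in the fits with library totals and with scaling on dbh and th.

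The 2 copies of each gene did not move alike. The ratio of paralog counts within a library does not depend on the scaling between libraries, and was compared on the log2 scale with 0.5 added to each count. It rests on the same counts as the fold changes above. The groups did not overlap for 72.5% of single tested genes, and how often a ratio of 2 genes does not overlap was not computed. The log2 ratio of foxo3a to foxo3b was 0.24, 0.002, -0.07 and 0.49 in MYCN 1 to 4 and -0.81, -0.82, -1.11 and -1.18 in myrAKT 1 to 4. The foxo3a reads outnumbered those of foxo3b in 3 of 4 MYCN libraries and were fewer in every myrAKT library, and the groups were apart. The means were 0.16 ± 0.25 and -0.98 ± 0.19 (SD, n = 4), a difference of -1.15 (exact two-sided permutation test, p = 0.0286, the smallest that 4 against 4 libraries allow). MYCN 4, low in both genes, had the highest ratio of the MYCN group, and without any single library the difference stayed between -1.22 and -1.04.

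The log2 ratio of foxo1a to foxo1b was -0.66, -1.66, -0.42 and -1.10 in MYCN 1 to 4 and 0.07, -0.04, 0.68 and 0.43 in myrAKT 1 to 4. All MYCN libraries held more foxo1b than foxo1a reads, and 3 of the 4 myrAKT libraries held more foxo1a reads. The means of -0.96 ± 0.55 and 0.29 ± 0.33 (SD, n = 4) differed by 1.25 (exact two-sided permutation test, p = 0.0286). Both p-values were 0.0286 after Benjamini-Hochberg adjustment over the 2 pairs. Without myrAKT 3 or myrAKT 4 the exact p for the foxo1 pair was 0.0571, the ratio difference being 1.11 and 1.20. How reads that fit both copies were counted is not given in the sources used here, so the counts of each pair are uncertain where their sequences are alike.

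**Figure D3:**
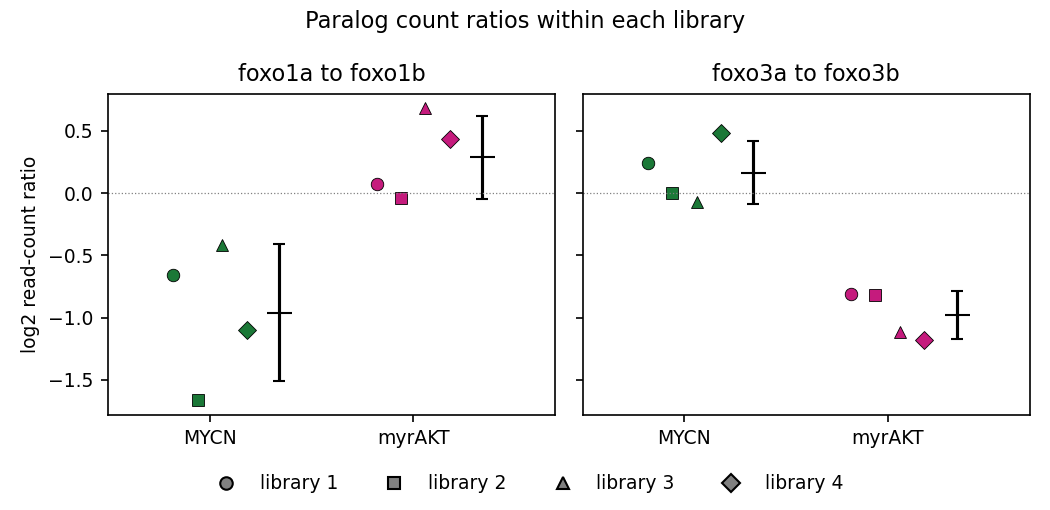
Log2 ratio of read counts of foxo1a to foxo1b (left) and foxo3a to foxo3b (right) in each of 4 MYCN (green) and 4 myrAKT (magenta) libraries, with mean and SD; marker shape is the library number. For the foxo1 pair the ratio is higher in every myrAKT library than in any MYCN library, and for the foxo3 pair it is lower.

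The make-up of the FOXO reads changed accordingly. Of all reads on the 4 genes, foxo1a and foxo1b together held 2.14 ± 0.662% (SD, n = 4) in MYCN and 19.0 ± 2.94% in myrAKT. Foxo3a held 51.7 ± 3.99% in MYCN and 27.2 ± 1.83% in myrAKT, and foxo3b 46.2 ± 4.44% and 53.8 ± 4.06%. The foxo1 and foxo3a shares did not overlap between groups, whereas those of foxo3b did, from 40.4 to 50.2% in MYCN and from 49.0 to 58.3% in myrAKT. In CPM the groups did not overlap for 72.5% of tested genes, and the like frequency for read shares was not computed. Longer transcripts give more reads, so these shares describe the reads and not the numbers of transcripts. The 4 genes together took 137.9, 150.8, 155.7 and 73.4 CPM in MYCN 1 to 4 and 189.6, 218.6, 169.3 and 192.3 CPM in myrAKT 1 to 4, with MYCN 4 again the lowest.

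**Figure D4:**
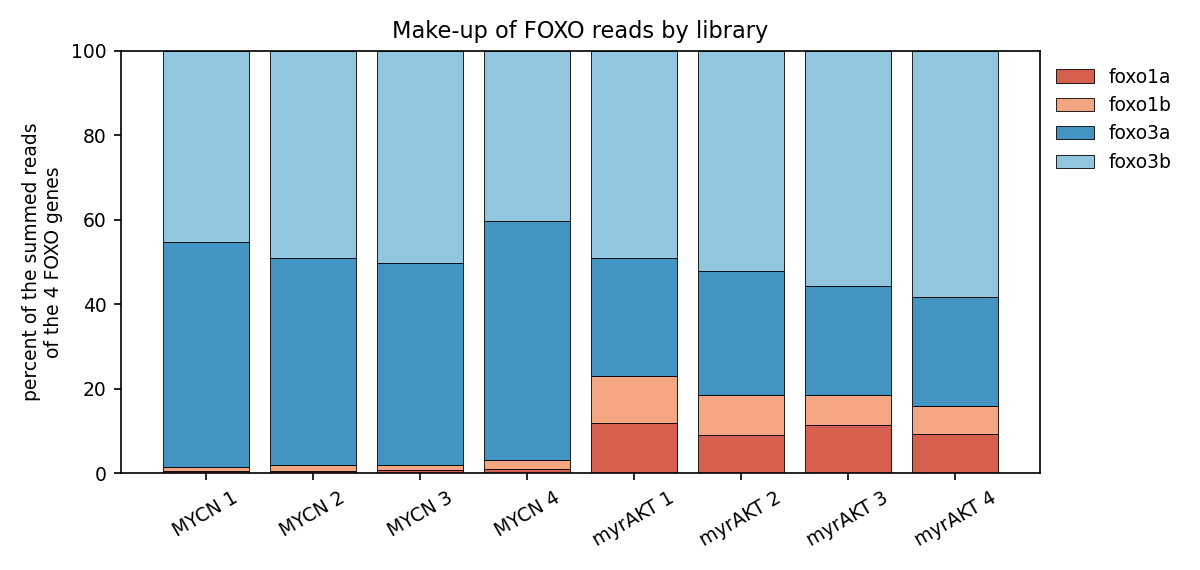
Percent of the summed reads of the 4 FOXO genes that fell on each gene (stacked bars, linear axis from 0 to 100%) in each MYCN and myrAKT library. The foxo1a and foxo1b segments are thin in MYCN (together 1.59 to 3.10%) and wide in myrAKT (16.0 to 23.1%), and the foxo3a segment is narrower in myrAKT.

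One further row bears on the family. The RefSeq gene table of assembly GRCz12tu lists si:ch211-206a7.2, which is a row of the count table, as an older symbol of foxo6b, a gene of the FOXO6 branch that is known from mammals as brain-rich. The row fell outside the rule and was looked at after its values were seen. It had 69, 65, 62 and 29 reads in MYCN 1 to 4 and 8, 3, 4 and 5 reads in myrAKT 1 to 4. Every MYCN library was higher, although all values are low. The means were 1.45 ± 0.531 CPM in MYCN and 0.125 ± 0.0583 CPM in myrAKT (SD, n = 4), and the 3 reads of myrAKT 2 have an exact Poisson interval of 0.619 to 8.77 reads. With so few reads in the myrAKT libraries the row passed the filter through MYCN, where it is high, so no test of it is given.

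The genes whose log2 CPM over the 8 libraries was most like that of a called FOXO gene were listed as a description. Tpcn2, a lysosomal two-pore channel, followed foxo1a with Pearson r = 0.999, and rab11fip4b, which binds the recycling GTPase Rab11, also with r = 0.999. Rell2 passed the filter through myrAKT, where it is high, with 0.302 ± 0.0765 CPM in MYCN (SD, n = 4). It followed foxo1b with r = 0.997, as did ell2, an elongation factor of RNA polymerase, with r = 0.995. With groups so far apart such values are common: 18.1% of 7852 genes compared had r over 0.95 with foxo1a, and 16.6% with foxo1b. For foxo3b the share was 0.904%, and the closest genes were slc30a4, a zinc transporter, at r = 0.990 and rnf103, a ubiquitin ligase of the endoplasmic reticulum, at r = 0.989. These 2 genes, like foxo3b, were lowest in MYCN 4, and all 8 libraries share depth and scaling with it.

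Among the genes that act on FOXO proteins, the kinases that phosphorylate them came first. Here 9 of 19 tested genes rose, 5 fell and 5 missed the threshold, so that 73.7% were called against 76.0% of all tested genes. Their median log2 fold change was 0.58 against -0.04 for all tested genes. With library totals 12 were higher and 2 lower, and on the dbh and th scaling 17 and 1. Sgk2b, named after its values were seen, is counted among the rises. It was at 0.283 ± 0.138 CPM in MYCN and 4.87 ± 3.08 CPM in myrAKT (SD, n = 4) and passed the filter through myrAKT, where it is high. The share called, which counts sgk2b, is only a description. Akt1 was at 25.7, 21.6, 14.4 and 14.5 CPM in MYCN 1 to 4 and at 52.1, 48.3, 43.4 and 42.4 CPM in myrAKT 1 to 4. The groups were apart, with akt1 higher by 1.29 on the log2 scale, SE 0.20 (edgeR, adjusted p = 2.5e-04). Akt3a was at 18.4, 16.5, 14.8 and 14.5 CPM in MYCN and 12.4, 11.4, 11.0 and 11.7 CPM in myrAKT, a difference of -0.46 on the log2 scale, SE 0.13 (edgeR adjusted p = 0.010), that was -0.08 with library totals (adjusted p = 0.663) and turned to 1.03 on the dbh and th scaling. Akt2, lower at -0.39 on the log2 scale (edgeR adjusted p = 0.020), did not pass with library totals (adjusted p = 0.892) or without MYCN 2, myrAKT 3 or myrAKT 4 (adjusted p 0.052, 0.060 and 0.056), and turned to 1.13 on the dbh and th scaling. The transgene has no row of its own, and these rows are not taken as its level. Whether any of its reads fell on the akt1, akt2 or akt3a rows was not tested. Akt3b was not analysed here.

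The largest rises among the kinases were in the SGK family, which phosphorylates FOXO proteins at sites shared with AKT. Sgk1 was at 2.31, 2.99, 3.60 and 2.88 CPM in MYCN 1 to 4 and at 163.8, 110.5, 183.1 and 163.5 CPM in myrAKT 1 to 4, higher by 5.72 on the log2 scale, SE 0.22 (edgeR, adjusted p = 7.3e-08). Sgk2a rose from 0.760 ± 0.279 to 22.6 ± 5.24 CPM (SD, n = 4), and prkaa1, a catalytic subunit of the energy sensor AMPK, by 1.45 on the log2 scale. Mapk10, a JNK kinase typical of neurons, fell from 69.1 ± 13.3 to 13.9 ± 4.15 CPM. Sgk1 is also abundant in kidney tubule, whose markers were at a median log2 fold change of 7.66, and the part of that tissue was not tested.

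In insulin and PI3K signalling 9 of 16 tested genes rose, 4 fell and 3 missed the threshold, against 12 higher and 1 lower on the dbh and th scaling. The share called in the reported fit was 81.2%, against 76.0% of all tested genes. Pik3cg, the PI3K subunit of blood cells, rose from 12.2 ± 1.77 to 244.6 ± 12.8 CPM (SD, n = 4; edgeR adjusted p = 3.2e-08), and pik3cd, another leukocyte subunit, rose by 1.51 on the log2 scale. Myeloid markers rose in the same libraries (summed level at least 15003 CPM in each myrAKT library and at most 1081 CPM in MYCN), and their part was not tested.

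The 14-3-3 genes, whose proteins hold phosphorylated FOXO in the cytoplasm, were mostly lower with TMM factors, 7 of 10 tested falling, 2 rising and 1 missing the threshold (median log2 fold change -0.72), but 5 were higher and 2 lower on the dbh and th scaling (median 0.78). With TMM factors 90.0% were called against 76.0% of all tested genes, 70% lower against 38.4%. Relative to the median of all tested genes the list lay at -0.68 with TMM factors and -0.67 on the dbh and th scaling. Subtracting that median removes a shift shared by all genes, so these values are alike by construction and do not decide between the scalings. Ywhah fell from 344.0 ± 41.8 to 76.0 ± 9.54 CPM (SD, n = 4; edgeR adjusted p = 7.3e-07) and ywhag1, of the gamma form, by 3.21 on the log2 scale. Ywhae2 was lower by 1.11 on the log2 scale but at 0.36, without passing, on the dbh and th scaling. Ywhaba, of the beta form, rose from 395.3 ± 36.3 to 636.6 ± 37.3 CPM. Of 13 tested sympathoadrenal markers 11 fell in the same libraries, and the part of neuronal cells in the 14-3-3 values was not tested.

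Coregulators and modifying enzymes had 10 of 19 tested genes higher, 7 lower and 2 in neither class, against 14 and 1 on the dbh and th scaling. In the reported fit 89.5% were called, against 76.0% of all tested genes. Smad3a, a TGF-beta effector that pairs with FOXO proteins on DNA, rose from 0.891 ± 0.364 to 31.4 ± 2.35 CPM (SD, n = 4), and hdac9b, a class II histone deacetylase, from 5.94 ± 1.98 to 105.1 ± 14.1 CPM. Setd7, a methyltransferase that modifies FOXO3 in mammals, fell from 61.9 ± 6.15 to 16.3 ± 2.26 CPM, a call lost on the dbh and th scaling. Over all 4 regulator groups 53 of 64 tested genes were called, 82.8% against 76.0% of all tested genes, 30 higher and 23 lower. That share counts sgk2b, which passed the filter through myrAKT, and is only a description. With library totals 37 were higher and 15 lower, and on the dbh and th scaling 48 and 5. Of all 12126 tested genes 5507 were higher and 3348 lower with library totals, and 8319 and 1026 on the dbh and th scaling.

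**Figure D5:**
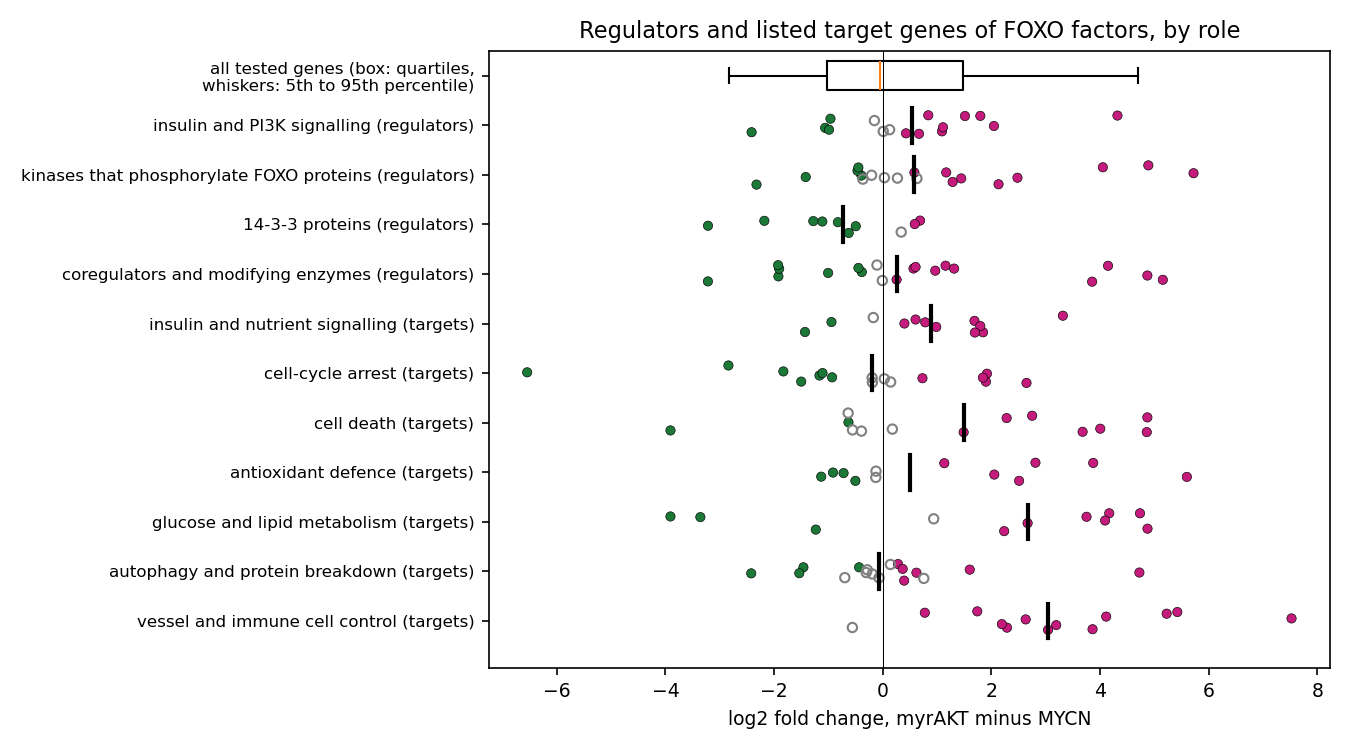
Log2 fold change (myrAKT minus MYCN) of the tested regulators and listed target genes of FOXO factors by role, 1 dot per gene with the median as a bar; magenta dots rose, green dots fell and open dots did not pass (edgeR adjusted p under 0.05), and the box on top is the distribution over all tested genes. With TMM factors the 14-3-3 genes lie mostly left of 0 (7 of 10; 2 of 10 lower on the dbh and th scaling) and the vessel and immune group right of it, and most other groups spread to both sides.

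The genes listed as targets of FOXO factors, known mainly from mammals, went both ways. Among 94 tested genes 52 were higher, 22 lower and 20 in neither class, so that 78.7% were called against 76.0% of all tested genes, 55.3% higher against 37.6%. These shares are only a description, as they count cdkn1ca, faslg and ccr7, which passed the filter through the group where they are high. The median here is over all of the listed targets that were tested. It was 0.74 on the log2 fold change scale, against -0.04 for all tested genes. On the dbh and th scaling 74 were higher and 6 lower, when 8319 of all 12126 tested genes were higher and 1026 lower.

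Genes of cell-cycle arrest, the response most often tied to FOXO activity, had a median of -0.19, with 5 of 16 higher, 7 lower and 4 not passing, but 9 were higher and 2 lower on the dbh and th scaling (median 1.27). With TMM factors 75.0% were called, against 76.0% of all tested genes. Cdkn1ca, a copy of the CDK inhibitor p57, was at 17.6 ± 9.20 CPM in MYCN and 0.187 ± 0.0189 CPM in myrAKT (SD, n = 4), with 294 to 1211 reads per MYCN library and 6 to 9 per myrAKT library. It passed the filter through MYCN, where it is high, so no test of it is given. The share called, which counts cdkn1ca, is only a description. Gadd45ab, a DNA damage response gene, was at 13.3 ± 1.90 against 47.1 ± 17.95 CPM and cited2, a transcriptional coregulator, at 14.9 ± 3.21 against 42.1 ± 4.80 CPM, and neither passed on the dbh and th scaling. Btg1, an antiproliferative gene abundant in lymphocytes, rose from 174.2 ± 23.1 to 650.2 ± 38.9 CPM. Of the p27 copies cdkn1ba was higher by 2.65 on the log2 scale and cdkn1bb was at 0.15 without passing, while cdkn1a, which encodes p21, was lower by 1.16 but at 0.31, without passing, on the dbh and th scaling; these 3 were named after their values were seen.

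Cell-death genes had 7 of 13 higher, 2 lower and 4 not passing, so that 69.2% were called against 76.0% of all tested genes, 53.8% higher against 37.6%. Without MYCN 4 the lower calls numbered 5. That fit called 80.9% of all tested genes, 5043 of them as lower, against 76.0% and 4655 lower in the reported fit. On the dbh and th scaling 12 genes were higher and 1 lower. Bcl6a and bcl6ab, copies of a repressor of germinal centre B cells, rose from 2.03 ± 0.862 to 59.8 ± 7.82 CPM and from 5.82 ± 2.21 to 93.3 ± 6.80 CPM (SD, n = 4). Faslg, the Fas ligand of cytotoxic lymphocytes, was at 5.46 ± 0.845 CPM in myrAKT against 0.422 ± 0.132 CPM in MYCN. It passed the filter through myrAKT, where it is high, so its call was nearly set by the filter. The share called, which counts faslg, is only a description. Bnip3, a mitophagy receptor induced by hypoxia, fell from 23.9 ± 10.6 to 1.62 ± 0.615 CPM. Bcl2l11 and bbc3, which encode the death proteins BIM and PUMA, were at -0.64 and -0.56 on the log2 scale and did not pass (edgeR adjusted p = 0.083 and 0.057), but were called lower without MYCN 4, at -0.87 and -0.77 (edgeR adjusted p = 0.0034 and 2.9e-04), and higher on the dbh and th scaling, at 0.86 and 0.90 (edgeR adjusted p = 0.025 and 0.012); they were named after their values were seen.

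Antioxidant genes had 6 of 12 higher, 4 lower and 2 not passing, whereas 2 were lower with library totals and none, with 10 higher, on the dbh and th scaling. The share called in the reported fit was 83.3%, against 76.0% of all tested genes. Gpx1a, a glutathione peroxidase, rose from 26.1 ± 8.44 to 382.2 ± 66.7 CPM (SD, n = 4), hmox1a, a haem oxygenase of macrophages among others, from 14.1 ± 2.25 to 98.8 ± 12.8 CPM, and nfe2l2a, a copy of the stress regulator NRF2, by 2.51 on the log2 scale. Txn2, the mitochondrial thioredoxin, was lower by 1.13 on the log2 scale but at 0.38, without passing, on the dbh and th scaling. Sod2 and cat, the mitochondrial superoxide dismutase and catalase that are common readouts of FOXO3, were at -0.72 (edgeR adjusted p = 0.0050) and -0.12 (adjusted p = 0.577) but at 0.79 and 1.32 on the dbh and th scaling, and sod2 did not pass with library totals (adjusted p = 0.079); both were again named after their values were seen.

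Nutrient genes were mostly higher, with 9 of 12 rising, 2 falling and 1 not passing, against 1 lower with library totals and none on the dbh and th scaling. In the reported fit 91.7% were called against 76.0% of all tested genes, 75% higher against 37.6%. The sestrins, which restrain mTORC1 when amino acids or energy run low, rose together: sesn3 from 5.01 ± 0.886 to 50.1 ± 6.36 CPM (SD, n = 4; edgeR adjusted p = 2.3e-07), sesn2 by 1.69 and sesn1, named after its values were seen, by 1.85 on the log2 scale. Trib3, a pseudokinase that binds AKT, rose by 1.80. Eif4ebp1, the translation inhibitor that mTORC1 inactivates, was lower at 102.2 ± 1.86 against 275.3 ± 15.3 CPM but at 0.07, without passing, on the dbh and th scaling.

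In glucose and lipid metabolism 7 of 11 genes rose, 3 fell and 1 did not pass, so that 90.9% were called against 76.0% of all tested genes, 63.6% higher against 37.6%. Pck2, a gluconeogenic enzyme of mitochondria, was at 106.2 ± 47.5 against 3.61 ± 0.708 CPM (SD, n = 4), pdk2b, a brake on pyruvate oxidation, at 62.6 ± 31.2 against 3.68 ± 1.81 CPM, and igfbp1a, a binder of insulin-like growth factors, was higher by 2.24 on the log2 scale. Angptl4, an inhibitor of lipoprotein lipase, fell from 124.5 ± 18.5 to 12.1 ± 2.74 CPM. Kidney tubule, itself a gluconeogenic tissue, had markers such as cdh17 at 912.5 ± 461 against 3.02 ± 1.95 CPM, and its part in these values was not tested.

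Genes of autophagy and protein breakdown had 6 of 17 higher, 4 lower and 7 not passing, so that 58.8% were called against 76.0% of all tested genes, and a median of -0.07. Without MYCN 4 the lower calls numbered 7, in the fit that called 80.9% of all tested genes. Over all tested genes 5043 were lower in that fit and 4655 in the reported one. On the dbh and th scaling 13 autophagy genes were higher and 1 lower (median 1.40). Tfeb, the regulator of lysosome genes, rose from 1.13 ± 0.241 to 30.1 ± 4.48 CPM (SD, n = 4; edgeR adjusted p = 9.7e-08), lamp2, a lysosomal membrane protein, from 90.3 ± 3.81 to 274.1 ± 17.4 CPM and atg4b, a protease of autophagosome formation, by 0.62 on the log2 scale. Gabarapl2 was lower by 1.46, a call lost on the dbh and th scaling. Fbxo32, the atrogin ubiquitin ligase that is a classical FOXO target in muscle, fell by 2.42 on the log2 scale (named after its values were seen).

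The vessel and immune group had 12 of 13 genes higher, none lower and 1, klf4 (named after its values were seen), not passing, with a median of 3.04. Thus 92.3% were called, all of them higher, against 76.0% of all tested genes called and 37.6% higher. That share is only a description, as the call of ccr7, given below, was nearly set by the filter. Klf2b was at 3.02, 3.70, 4.61 and 5.09 CPM in MYCN 1 to 4 and at 176.6, 174.2, 179.6 and 174.5 CPM in myrAKT 1 to 4, and klf2a at 6.43, 7.62, 8.52 and 6.33 CPM and 110.3, 108.1, 100.7 and 101.1 CPM; both copies of KLF2, a factor of endothelium and resting T cells, differed more between groups than within them. Ccr7, a homing receptor of lymphocytes and dendritic cells, was at 20.4 ± 8.59 against 0.114 ± 0.0856 CPM (SD, n = 4) and passed the filter through myrAKT, where it is high. Their direction was that of the endothelial gene fli1a, at 100.5 ± 13.7 against 1.25 ± 0.246 CPM, and of the lymphoid gene ikzf1, at 147.0 ± 30.4 against 2.56 ± 0.626 CPM. What part such cells had in these values was not tested.

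Other forkhead genes gave a further frame for the family. Of 43 rows 26 passed the filter, and of these 14 rose, 8 fell and 4 did not pass, 84.6% called against 76.0% of all tested genes. Some of them passed the filter through the group where they are high, such as foxq1a (0.0749 CPM in MYCN, 1.71 CPM in myrAKT) and foxg1b (0.795 and 0.0559 CPM). For such genes a call was nearly set by the filter, so the share called is only a description. Among the tested forkhead genes with a mean log2 CPM of at least 2, the largest rises were in foxj1a, the regulator of motile cilia, from 0.244 ± 0.131 to 12.9 ± 6.45 CPM (SD, n = 4), in foxm1, the mitotic factor whose actions FOXO proteins oppose, from 1.67 ± 0.217 to 21.3 ± 7.62 CPM, and in foxp3a, of regulatory T cells, from 3.50 ± 2.04 to 32.2 ± 6.05 CPM. Foxj1a passed the filter through myrAKT, where it is high. Foxp1a, of neurons and lymphocytes, was at 127.2, 134.0, 113.8 and 48.2 CPM in MYCN 1 to 4 and at 26.7 to 31.8 CPM in myrAKT, a call lost on the dbh and th scaling. Foxk1 and foxk2, which compete with FOXO3 for autophagy genes in mammals, were lower by 0.89 and 1.13 on the log2 scale (edgeR adjusted p = 0.011 and 1.8e-04) but at 0.63 and 0.37, without passing, on the dbh and th scaling; foxk1 also did not pass with library totals (adjusted p = 0.123). MYCN 4, lowest of its group for both foxo3 genes, was the lowest MYCN library for these 3 genes too, at 63.6 CPM for foxk1 against 133.2 to 167.8 CPM in MYCN 1 to 3.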

How the data were processed

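RNA-seq of 8 libraries of sorted tumour cells was used, 4 MYCN and 4 myrAKT. The authors deposited raw read counts per gene symbol, 1 column per library. The submitters' processing notes name the build GRCz10 and the tools TopHat2 2.1.1, HTSeq 0.6.1, SAMtools 1.5, FastQC 0.11.5, edgeR and Trim Galore 0.4.4. The sources used here state neither the annotation, nor the strand setting, nor how reads matching more than 1 gene were treated. The labels' protocols describe ribosomal RNA depletion, whereas the molecule label is polyA RNA.

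Here edgeR 4.0.16 in R 4.3.3 was used on all 14781 rows: filterByExpr by group (12126 genes), TMM factors (0.747 to 1.04 in MYCN, 1.10 to 1.22 in myrAKT), the robust quasi-likelihood F test with group as the only term, two-sided, and Benjamini-Hochberg adjustment over all tested genes with a threshold of 0.05. SE was derived from the fold change and F statistic. Paralog ratios were compared by exact permutation over libraries. Log2 CPM for likeness used a prior count of 2. Libraries of a group differed beyond sampling noise in all 12 pairs (chi-square per degree of freedom 20.2 to 264), so each counted as 1 sample. The script was tested on simulated data.

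The lists hold 324 symbols; 253 matched a row directly and 8 more through older symbols in the RefSeq table of GRCz12tu. Bcl6a stands in a regulator and a target list, foxp3a in the target and forkhead lists and foxd3 in the glial and forkhead lists. The members, lists and tests were chosen with earlier results of these data known. Named genes were the FOXO and AKT genes; per role up to 3 called genes of smallest adjusted p in the commoner direction and 1 in the other; the 3 other forkhead genes with the largest change each way (mean log2 CPM of at least 2); the 2 most abundant markers per list; and the 2 genes most like each called member (mean log2 CPM of at least 3, clone names left out). This gave 83 genes, 79 of them tested; those outside the rule are marked in the text. Some results of the insulin and PI3K list are not reported here. Alternatives were other scalings (library totals, median-of-ratios, upper quartile, dbh and th counts), DESeq2 1.42.0, other filters, a replicate block and leaving out each library.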

Additional observations from a re-analysis of the deposited data

Results flagged for a closer look

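A value was listed when the gap between a library and the rest of its group of 4 was large for the group's range (Dixon's test at its 95% level). Of 164 groups examined 7 were listed, and chance alone lists about 1 in 20. Foxo3a was low in MYCN 4, at 41.5 CPM against 73.5 CPM in the next library, and this library decides whether foxo3a passes the test. In the same library bnip3 was low at 7.99 CPM (next 28.4 CPM), slc30a4 low at 10.9 CPM (next 23.3 CPM), ywhaba high at 449.7 CPM (next 378.9 CPM) and gpx1a high at 38.7 CPM (next 22.2 CPM). In MYCN 3 the glial marker mbpb was high at 36.8 CPM (next 25.1 CPM) and rab11fip4b high at 9.98 CPM (next 7.02 CPM). MYCN 4 also had the lowest TMM factor, 0.747.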

How the results depend on the processing

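Foxo1a and foxo1b kept direction and call in all 16 alternatives, at 4.36 to 5.98 and 3.16 to 4.87 on the log2 scale. Foxo3a was at 0.021 with library totals and 1.18 scaled on dbh and th. Leaving out single libraries, foxo1a was between 4.36 and 4.74, foxo1b between 3.16 and 3.43, foxo3a between -0.50 and -0.24 and foxo3b between 0.52 and 0.93; members called were between 2 and 4, 2 to 3 higher and 0 to 1 lower. The ratio differences were then between 1.01 and 1.43 for the foxo1 pair and between -1.22 and -1.04 for the foxo3 pair. Of all tested genes 8838 to 9988 were then called, the most without MYCN 4. Scaled on dbh and th, 8319 of all tested genes were higher and 1026 lower, regulators 48 and 5, and 6 target and 2 other forkhead genes were lower. With library totals 15 regulators were lower, and with the CPM filter (at least 1 in 4 libraries), under which fewer genes are tested, 5 other forkhead genes. The cause of these shifts beyond the scaling itself was not tested. With library totals 62.2% of all calls were higher against 49.5% with TMM, and 89.0% on the dbh and th scaling.

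Of 76 further genes, 58 kept direction and call in every alternative and 7 changed call outside the dbh and th scaling. Many were named for a small adjusted p or a large change in the reported fit, so a kept call is partly set by that choice. On that scaling akt2 (1.13), akt3a (1.03), ywhae2 (0.36), eif4ebp1 (0.067), txn2 (0.38), foxk2 (0.37), foxk1 (0.63), th (0.052), mylz3 (0.61) and ckmb (0.57) changed sign. Dbh and th set that scale, so their own values on it are fixed by construction.

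Replicate numbers are shared between groups, but the deviations of same-numbered libraries correlated at -0.13, 0.008, 0.12 and -0.18. No pairing was seen, and 4 such values cannot exclude one, so the reported fit treats the libraries as unpaired. With the replicate block 8816 genes passed, foxo3b was at 0.84 (adjusted p = 0.033) and foxo3a at -0.30 (0.197), and no FOXO call changed. Paired sign permutation of the ratios (differences 1.25 and -1.15) gave p = 0.125, the smallest that 4 pairs allow. Depth limits foxo1a in MYCN and si:ch211-206a7.2 in myrAKT, which rest on 23 to 53 and 3 to 8 reads per library.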

Other observations

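Within the myrAKT group, foxo1b was high in libraries 1 and 2 (21.3 and 20.5 CPM) and lower in 3 and 4 (12.1 and 13.1 CPM), while foxo1a was at 17.7 to 22.4 CPM in all of them. The same split was seen in foxm1, at 24.9, 30.2, 16.3 and 13.8 CPM in myrAKT 1 to 4, in the summed erythroid markers, at 10534, 10752, 4446 and 5295 CPM, in the summed lymphocyte markers, at 585, 605, 413 and 387 CPM, and by less in the summed myeloid markers, at 18843, 18478, 15652 and 15003 CPM. Of the 2 most abundant myeloid markers cd74a followed the split, at 7176, 7900, 5694 and 5274 CPM, and lyz did not, at 4651, 3824, 4307 and 4347 CPM. Of the 2 most abundant lymphocyte markers ikzf1 followed it, at 175.2, 168.5, 133.8 and 110.4 CPM. Ccr9a was almost equal in libraries 1 and 3, at 105.7, 117.7, 105.1 and 96.5 CPM in myrAKT 1 to 4. Endothelial markers ran the other way, at 447, 440.3, 654 and 590 CPM, as did stromal markers, at 454, 448, 564 and 584 CPM, and kidney tubule markers, at 2642, 1135, 4180 and 3382 CPM. Summed sympathoadrenal markers, those of the tumour lineage, also ran the other way, at 1996, 2803, 3711 and 4459 CPM in myrAKT 1 to 4. Glial markers differed little, at 98.4, 107.9, 92.5 and 92.6 CPM, and muscle markers were at 8.68, 15.05, 8.40 and 8.39 CPM. These are 4 libraries, so no correlation was computed, and the part of any cell type was not tested.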
